A study of Homo sapiens with 12 samples.

Results

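The data describe how imatinib and MLN4924 act together on the transcriptome of K562 cells, read as the departure of every gene from additive effects of the drugs. All 12 of the 12 libraries entered, in 4 groups of 3, and 15478 of the 61541 Ensembl genes of the deposited table were measured, namely those with at least 1 TPM (transcript abundance scaled for length and to the library total) in at least 3 libraries. K562 is an established human chronic myelogenous leukemia line that carries the BCR::ABL1 fusion kinase, and the cells were kept for 12 h as control, with MLN4924 at 25 µM, with imatinib at 0.5 µM or with both at these doses (imatinib + MLN4924). The label control names no vehicle, polyadenylated RNA was sequenced, and nothing states that the replicates came from separate cultures, so every p-value is set by a spread among libraries that may be technical.

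Imatinib occupies the ATP site of BCR::ABL1, whose signal reaches the nucleus mainly through STAT5 and the RAS to ERK cascade, and K562 cells treated with it accumulate hemoglobin. MLN4924 blocks NEDD8 activation, and without NEDD8, a small modifier related to ubiquitin, cullin-RING ubiquitin ligases lose activity, and one such ligase, built on CUL3 and KEAP1, normally keeps the oxidative stress factor NRF2 low. A 2 by 2 layout of the drugs lets the effect of imatinib be read in the absence and in the presence of MLN4924, and the difference between these effects is the interaction.

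The interaction was taken on log2(TPM + 1) as imatinib + MLN4924 minus MLN4924, less imatinib minus control. A value of 0 means that the log2 effects add up. A positive value means that the level with both drugs lay above the additive level, and a negative value that it lay below. Values were tested with limma across all genes, and a gene was called at an adjusted p under 0.05. Since log2(TPM + 1) flattens low values, the effect of a drug is understated in genes near 1 TPM. Their interaction, a difference between such effects, can be made smaller or larger by this. Since TPM is scaled to the same total in every library, the depth behind a value is unknown. Between 13905 and 14937 genes stood at 1 TPM or more in each library. TPM values are listed in the order of replicates 1, 2 and 3, and errors are standard errors (SE) of the fitted differences. Replicate 3 of imatinib lay nearer to control than the others of its group, and a list's count is given without it, or without any other library, where that moves the count by more than 1.5 times.

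Of the 15478 genes, 2540 were called (16.4%), 1402 positive (9.06%) and 1138 negative (7.35%), and 5145 had an unadjusted p under 0.05. The shares in brackets are the background for the count of every gene list below. The median interaction over all genes was -0.01, and 632 called genes departed by at least 1 log2 unit, 249 above and 383 below the additive level. After rescaling without mitochondrial transcripts and the 10 most abundant genes the split was 1055 positive to 1407 negative. Among the called genes 2158 code for protein (18.4% of 11735 tested). Long noncoding RNAs made up 287 (11.7% of 2451 tested, below the 16.4% over all genes), of which 56 were positive and 231 negative. Of the sum of squares over all genes, imatinib took 32.6% (jackknife SE 3.08), MLN4924 22.3% (SE 1.68), the interaction 10.4% (SE 1.36) and the spread within groups 34.7% (SE 3.18). Spread among libraries also enters the shares of the drugs and of the interaction and was not subtracted. The 10.4% is therefore not all departure from additive effects.

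The departures ran against the effect of imatinib. In control cells 8333 genes were called for imatinib (53.8%), 26.3% higher and 27.5% lower, and in cells given MLN4924 2508 (16.2%), 7.73% higher and 8.48% lower, or 1025 and 1027 without replicate 1 or 2 of imatinib + MLN4924 and 1244 to 1419 without any 1 MLN4924 library. After rescaling without mitochondrial transcripts and the 10 most abundant genes the splits were 4968 higher to 3473 lower in control cells and 1386 higher to 989 lower in cells given MLN4924. Among the 1402 positive genes imatinib against control was below 0 in 1397, with a median of -0.84 without MLN4924 and of -0.20 with it. Among the 1138 negative genes it was above 0 in 1128, with medians of 0.99 and 0.18. The interaction contains the libraries of both simple effects, imatinib against control with a minus sign, so these directions are a description of the called genes. The effects without and with MLN4924 share no library, and across all genes the second rose on the first with a slope of 0.344 (jackknife SE 0.0611), genes not being independent replicates. Over protein-coding genes alone the slope was 0.380. Spread among libraries enters both effects and was not taken out of the slope. It is therefore not the share of the imatinib effect that remained with MLN4924.

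**Figure D1:**
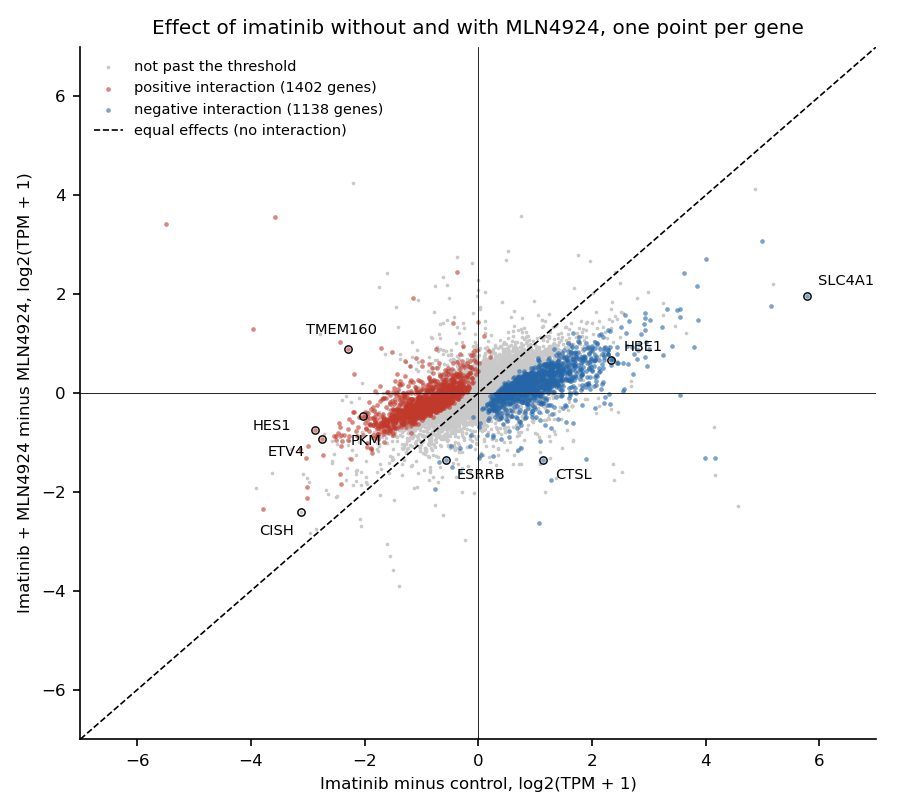
Effect of imatinib on log2(TPM + 1) in control cells (horizontal axis) and in cells with MLN4924 (vertical axis) for the 15478 genes, with the 1402 positive interactions in red, the 1138 negative ones in blue and equal effects on the dashed line. Red genes lie mostly left of 0 and above the line and blue genes mostly right of 0 and below it, and circled genes are named in the text.

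By class of departure, 1751 of the 2540 called genes had a called imatinib effect without MLN4924 and none with it, which is 68.9%, 972 positive and 779 negative. This pattern was common over all genes, at 6182 tested, of which the 1751 are 28.3%. In 652, or 36.6% of the 1781 tested genes of this kind, the effect was called in both backgrounds with the same sign and was smaller with MLN4924. It was called only with MLN4924 in 61 (17.1% of 357 tested) and with opposite signs in 42 (all 42 tested). It was called in neither background in 30 (0.44% of 6788) and was larger with MLN4924 in 4 (1.22% of 328). Missing the threshold with MLN4924 does not show that imatinib had no effect there. MLN4924 was called in 6658 genes (43.0%) with imatinib, 22.6% higher and 20.5% lower, and in 2239 (14.5%) without it, 7.36% higher and 7.11% lower, or 1362, 1433 and 1430 without MLN4924 replicate 2, MLN4924 replicate 3 and control replicate 2. After rescaling without mitochondrial transcripts and the 10 most abundant genes the split with imatinib was 2922 higher to 3656 lower. Read along the axis of MLN4924, its effect was called only with imatinib in 1866 of the 2540 genes (35.9% of 5203 tested). It was called only without imatinib in 307 (39.2% of 784), and was larger with imatinib in 148 (17.3% of 855). It had opposite signs in 96 (all 96 tested), was smaller with imatinib in 23 (4.56% of 504) and was called in neither background in 100 (1.24% of 8036).

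The 4 genes with the larger imatinib effect were ESRRB, EPAS1, FAM83A and SOX5, all lower with imatinib. ESRRB, an orphan nuclear receptor, stood at 11.8, 10.7 and 11.3 TPM in control, 12.1, 11.6 and 10.4 TPM with MLN4924, 8.29, 6.93 and 6.74 TPM with imatinib and 3.29, 3.56 and 4.73 TPM with both drugs. Every library with both drugs was below every other one. Its interaction was -0.79 ± 0.17 (SE, adjusted p = 0.0154). EPAS1, the hypoxia-inducible factor subunit HIF-2 alpha, was at 8.54, 6.99 and 8.08 TPM in control, 14.7, 14.6 and 9.27 TPM with MLN4924, 4.88, 4.70 and 3.19 TPM with imatinib and 2.88, 1.97 and 2.81 TPM with both drugs. Its interaction of -1.18 ± 0.27 (SE, adjusted p = 0.0177) missed the threshold without imatinib replicate 2 (adjusted p = 0.0503).

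These counts changed when single libraries were left out. Replicate 3 of imatinib lay closer to control than the others: over the positive genes its median difference from the control mean was -0.66, against -0.95 and -0.93 in replicates 1 and 2, and over the negative genes it was 0.86, against 1.04 and 1.08. Replicate 3 of imatinib + MLN4924 was also nearest to control over the positive genes, at -0.24 against -0.37 and -0.39. When each library was left out in turn, the calls numbered 1055 without imatinib replicate 2, 1189 without imatinib replicate 1 and 3979 without imatinib replicate 3, and between 1445 and 1650 without control replicate 2, MLN4924 replicate 2 or 3 or imatinib + MLN4924 replicate 3. For the other 5 libraries they lay between 1718 and 2087. All 2540 genes kept their sign in the 12 reduced fits, 977 (38.5%) were called in every one of them, 527 positive and 450 negative, and 1037 were called in fewer than 6. Without replicate 3 of both imatinib groups 3662 genes were called, 2136 positive and 1526 negative.

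**Figure D2:**
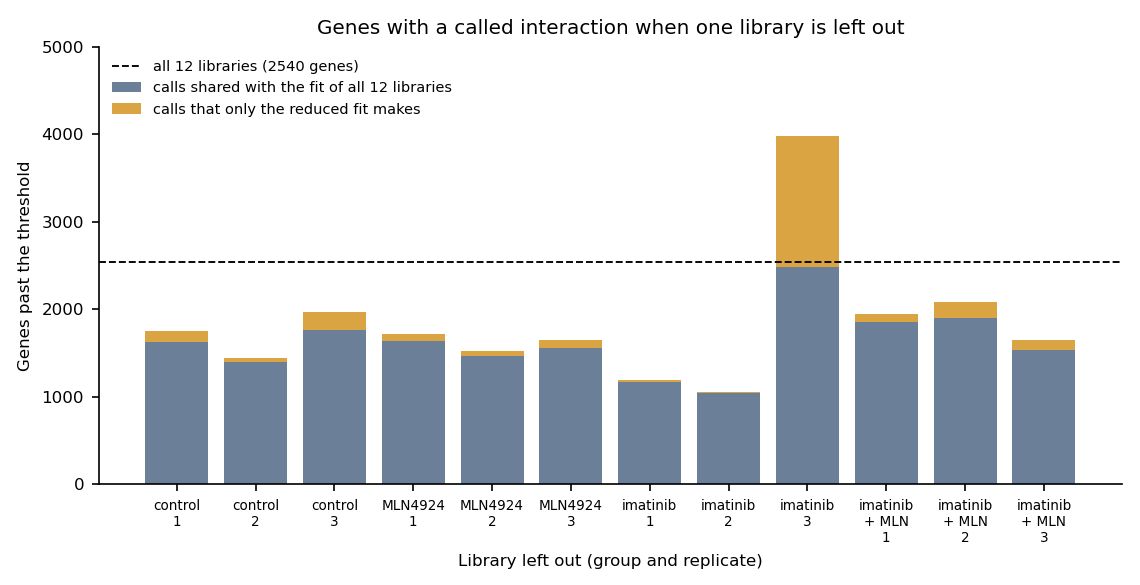
Genes with a called interaction (vertical axis, number of genes) when 1 library is left out (horizontal axis, group and replicate), split into calls shared with the fit of all 12 libraries and calls made only by the reduced fit. The counts run from 1055 without imatinib replicate 2 to 3979 without imatinib replicate 3, and the dashed line marks the 2540 calls of all libraries.

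The gene with the smallest adjusted p was CTSL, the lysosomal protease cathepsin L (ENSG00000135047, chr9:87724051-87731469, GRCh38). CTSL stood at 134, 134 and 128 TPM in control, 636, 741 and 758 TPM with MLN4924, 309, 306 and 263 TPM with imatinib and 271, 259 and 299.6 TPM with both drugs. Each drug alone raised it and the groups did not overlap control, but the libraries with both drugs lay within the range of imatinib alone or just below it, and all were under those with MLN4924. Additive effects would have given 1562 TPM, and the interaction was -2.50 ± 0.12 (SE, adjusted p = 3.56e-06), from -2.58 to -2.45 in the reduced fits. Imatinib changed CTSL by 1.14 without and by -1.36 with MLN4924, and MLN4924 by 2.42 without and by -0.08 with imatinib (adjusted p = 0.466 for the last).

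Of 23 measured genes of lysosome and autophagy, 6 were negative and 1, GLA, the lysosomal alpha-galactosidase, was positive, with a median interaction of -0.23. CTSB, the related protease cathepsin B, stood at 88, 80.6 and 78.1 TPM in control, 146, 131 and 135 TPM with MLN4924, 210.1, 209.7 and 150.5 TPM with imatinib and 155, 143 and 151 TPM with both drugs. Its libraries with both drugs overlapped those with MLN4924 alone and reached the lowest with imatinib alone, and its interaction was -1.06 ± 0.16 (SE, adjusted p = 0.00394). LAMP1, a lysosomal membrane protein, had an interaction of 0.00 ± 0.11 (SE, adjusted p = 0.995). The 6 negative calls fell to 2 without imatinib replicate 2 and to 3 without imatinib replicate 1, MLN4924 replicate 1 or control replicate 2.

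For CTSL and for the erythroid genes EPB42 and ALAS2 described next, the 250 bases before the RefSeq start (GRCh38.p14) are given with motif letters in capitals, to show what sequence lies in front of genes that departed downwards. In CTSL the capitals mark an antioxidant response element core, TGACNNNGC, bound by NRF2 with small MAF proteins, and in EPB42 GATA sites, AGATAA, bound by GATA factors. The STAT site is TTCNNNGAA and the AP-1 site TGANTCA, and all were searched on both strands. ALAS2 held a GATA site and an antioxidant core that overlapped an AP-1 site. Of 27305 promoters of this length, 9.37% held the GATA site, 11% the antioxidant core, 6.60% the AP-1 site and 6.78% the STAT site, and a match is a description only. Among tested genes with such a promoter, the GATA site was present in 47 of 767 negative genes (6.13%), in 25 of 1075 positive genes (2.33%) and in 477 of all 10259 (4.65%). The GATA site was not alone in this, since the AP-1 site was in 5.61% of negative, 2.6% of positive and 3.73% of all genes. In the same order the STAT site was in 3.91%, 6.23% and 5.41%, and the antioxidant core in 12.6%, 13.5% and 12.4%.
CTSL chr9:87725869-87726118 (forward strand): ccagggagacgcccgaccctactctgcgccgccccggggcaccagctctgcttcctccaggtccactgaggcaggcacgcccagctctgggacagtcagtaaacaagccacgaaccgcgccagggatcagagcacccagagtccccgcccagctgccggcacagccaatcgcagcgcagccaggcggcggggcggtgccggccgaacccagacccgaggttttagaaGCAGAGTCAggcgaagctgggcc
EPB42 chr15:43221019-43221268 (reverse strand): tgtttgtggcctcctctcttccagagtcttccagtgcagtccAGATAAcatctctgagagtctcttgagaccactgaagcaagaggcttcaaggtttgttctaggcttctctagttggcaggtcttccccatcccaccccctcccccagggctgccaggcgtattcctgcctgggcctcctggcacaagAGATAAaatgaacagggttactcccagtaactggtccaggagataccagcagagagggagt
ALAS2 chrX:55030978-55031227 (reverse strand): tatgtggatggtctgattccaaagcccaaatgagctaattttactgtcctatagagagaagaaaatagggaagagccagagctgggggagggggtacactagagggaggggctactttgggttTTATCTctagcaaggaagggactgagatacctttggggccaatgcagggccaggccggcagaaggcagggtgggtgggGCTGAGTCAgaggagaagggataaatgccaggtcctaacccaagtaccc

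Erythroid genes departed downwards. Of 10 measured genes of hemoglobin and oxygen transport 6 were negative and none positive, with a median interaction of -1.24, and these 6 were called in all 12 reduced fits. The list median, as a log2 difference from the control mean, stood at 1.88, 1.75 and 1.23 in the imatinib libraries, at -0.83, -0.74 and -0.51 with MLN4924 and at 0.26, -0.18 and -0.53 with both drugs. HBE1, the embryonic epsilon globin (chr11:5268345-5505652), stood at 526, 502 and 484 TPM in control, 539, 541 and 560.2 TPM with MLN4924, 2779, 2662 and 2267 TPM with imatinib and 921, 965 and 749 TPM with both drugs. The groups with imatinib overlapped neither each other nor the rest, and the interaction was -1.67 ± 0.14 (SE, adjusted p = 5.26e-04). HBZ, the embryonic zeta globin, stood at 1662, 1778 and 1714 TPM in control, 645, 893 and 932 TPM with MLN4924, 14691, 13948 and 9644 TPM with imatinib and 2376, 2212 and 1235 TPM with both drugs. MLN4924 lowered HBZ by itself (-1.08) and by more in the presence of imatinib (-2.75), with an interaction of -1.67 ± 0.33 (SE, adjusted p = 0.011). The alpha globins HBA1 and HBA2 had interactions of -1.30 ± 0.19 and -1.72 ± 0.26 (SE), and the gamma globins HBG1 and HBG2 of -0.99 ± 0.17 and -1.01 ± 0.19 (SE), but within each pair the genes are near-identical and reads may have been split between them.

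Of 27 measured genes of erythroid differentiation 16 were negative and none positive, with a median of -0.57. SLC4A1, the band 3 anion exchanger of the red cell membrane (chr17:44248390-44268141), stood at 1.32, 1.01 and 2.13 TPM in control, 0.48, 0.30 and 0.31 TPM with MLN4924, 171, 180.1 and 78.5 TPM with imatinib and 5.51, 6.59 and 2.04 TPM with both drugs. All imatinib libraries were above all others, with replicate 3 at less than the rest of its group, and the libraries with both drugs reached at most 6.59 TPM. Its interaction was -3.83 ± 0.51 (SE, adjusted p = 0.00251) and additive effects would have given 74.4 TPM. EPB42, the band 3 partner protein 4.2, stood at 0.22, 0.24 and 0.33 TPM in control, 0.05, 0 and 0 TPM with MLN4924, 24.5, 22.3 and 9.65 TPM with imatinib and 1.97, 2.88 and 0.97 TPM with both drugs. The interaction of EPB42 was -2.40 ± 0.44 (SE, adjusted p = 0.00796). Both genes stood at no more than 2.13 TPM in every library without imatinib. The size of both interactions therefore depends on the 1 added to TPM. For EPB42, listed at 0 in 2 libraries with MLN4924, no fold is given. All its libraries without imatinib stood under that 1, so its negative value holds on log2(TPM + 1) and says nothing of a ratio of TPM.

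Further genes of the list are given with their values. ALAS2, the erythroid enzyme that starts heme synthesis (chrX:55009055-55030977), stood at 43, 38.4 and 41.1 TPM in control, 19.2, 22.9 and 19.2 TPM with MLN4924, 503, 512 and 282 TPM with imatinib and 87.8, 79.5 and 46.6 TPM with both drugs. Both groups with imatinib lay above both groups without it, and the interaction was -1.62 ± 0.35 (SE, adjusted p = 0.0144). FAXDC2, a fatty acid hydroxylase family member, had an interaction of -1.69 ± 0.31 (SE, adjusted p = 0.00751). TFRC, the transferrin receptor, had an interaction of -0.46 ± 0.09 (SE). The 16 calls numbered between 12 (without imatinib replicate 2) and 19 (without imatinib replicate 3), and 12 of the genes were called in all reduced fits.

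Of 19 measured genes of heme synthesis and iron 11 were negative and none positive, with a median of -0.46, and 3 of the 11, ALAS2, TFRC and SLC25A37, the mitochondrial iron importer mitoferrin, are also on the erythroid list. SLC25A37 stood at 62.3, 56.5 and 48.5 TPM in control, 50.4, 49.5 and 48.8 TPM with MLN4924, 528, 563 and 308 TPM with imatinib and 104, 99.8 and 76.2 TPM with both drugs. The interaction of SLC25A37 was -2.11 ± 0.28 (SE, adjusted p = 0.00246), and FTH1, the ferritin heavy chain, had -0.53 ± 0.12 (SE, adjusted p = 0.0145). ALAS1, the enzyme of the other tissues, had an interaction of 0.13 ± 0.12 (SE, adjusted p = 0.511). The count fell to 5 without imatinib replicate 1 or 2, and to 7 without control replicate 2 or MLN4924 replicate 1.

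The transcription factors of the lineage split. Among 14 measured, MYB, RUNX1 and GATA2 were positive and TAL1 and GFI1B negative. GATA2, a factor of progenitors that is replaced by GATA1 as red cells mature (chr3:128479427-128493201), stood at 80.0, 91.8 and 94.3 TPM in control, 82.4, 84.5 and 85.6 TPM with MLN4924, 16.5, 17.2 and 28 TPM with imatinib and 54.7, 49.9 and 77.3 TPM with both drugs. The imatinib libraries were below all others, and the interaction was 1.6 ± 0.27 (SE, adjusted p = 0.0057). MYB, which keeps progenitors dividing, stood at 105, 119 and 124 TPM in control, 67.3, 70.2 and 60.4 TPM with MLN4924, 25.9, 28.7 and 41.9 TPM with imatinib and 57.6, 54.4 and 49.9 TPM with both drugs. It fell with either drug alone, but with both it lay above imatinib alone in every library, with an interaction of 1.56 ± 0.21 (SE, adjusted p = 0.00246). TAL1, a partner of GATA1, stood at 31.3, 28.4 and 28.5 TPM in control, 32.7, 30.4 and 27.1 TPM with MLN4924, 79, 83.1 and 65.5 TPM with imatinib and 38.3, 39 and 31.6 TPM with both drugs. Its interaction was -1.07 ± 0.16 (SE, adjusted p = 0.00361). GATA1, the master factor of the lineage, and KLF1, the activator of adult globin, had interactions of 0.30 ± 0.12 and -0.06 ± 0.18 (SE) that were not called (adjusted p = 0.0962 and 0.846). In KLF1 the effect of imatinib was 0.86 without and 0.80 with MLN4924, and that of MLN4924 was -0.99 without and -1.05 with imatinib. RUNX1 was called in 4 of the 12 reduced fits and the other 4 called factors in all.

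Further negative genes are named by the size of their value alone. ESPN, the actin bundler espin, stood at 4.30, 2.05 and 0.89 TPM in control, 1.24, 0.37 and 0.89 TPM with MLN4924, 140.5, 137 and 68.2 TPM with imatinib and 7.70, 6.84 and 2.33 TPM with both drugs. Its interaction was -3.38 ± 0.62 (SE, adjusted p = 0.00795). AQP1, the water channel of red cells, stood at 4.12, 2.81 and 2.32 TPM in control, 4.08, 1.97 and 2.12 TPM with MLN4924, 68.1, 68.4 and 34.7 TPM with imatinib and 5.18, 7.34 and 5.23 TPM with both drugs. Its interaction was -2.87 ± 0.41 (SE, adjusted p = 0.00328). In both genes replicate 3 was the lowest imatinib library and still exceeded every library of the other groups. PHOSPHO1, a phosphatase of phosphocholine, CYP3A5, a drug-metabolizing cytochrome, TNS1, an adhesion adaptor, CLIC3, a chloride channel protein, and BEST3, a bestrophin, had interactions of -2.47, -2.20, -2.53, -2.49 and -2.09, all called in every reduced fit.

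SGSM1, which encodes a regulator of small GTPases, had the largest negative value among the genes named by size, -5.48 ± 1.09 (SE, adjusted p = 0.0109). SGSM1 stood at 0.01, 0 and 0 TPM in control, 7.98, 5.85 and 19 TPM with MLN4924, 22.2, 8.56 and 25.2 TPM with imatinib and 0, 4.66 and 13 TPM with both drugs. It was listed at 0 or 0.01 in control and appeared with each drug alone, but the spread within groups was wide and 1 library with both drugs was listed at 0, so no fold is given. Markers of megakaryocytes, 11 of which were measured, went both ways. TUBB1, the beta tubulin of platelets, stood at 12.6, 10.2 and 10.2 TPM in control, 15.8, 13.4 and 12.7 TPM with MLN4924, 92.9, 101 and 74.8 TPM with imatinib and 39.8, 38.8 and 35.9 TPM with both drugs. Its interaction was -1.52 ± 0.17 (SE, adjusted p = 0.00174). ITGA2B, integrin alpha IIb, had -1.09 ± 0.25 (SE, adjusted p = 0.0173).

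**Figure D3:**
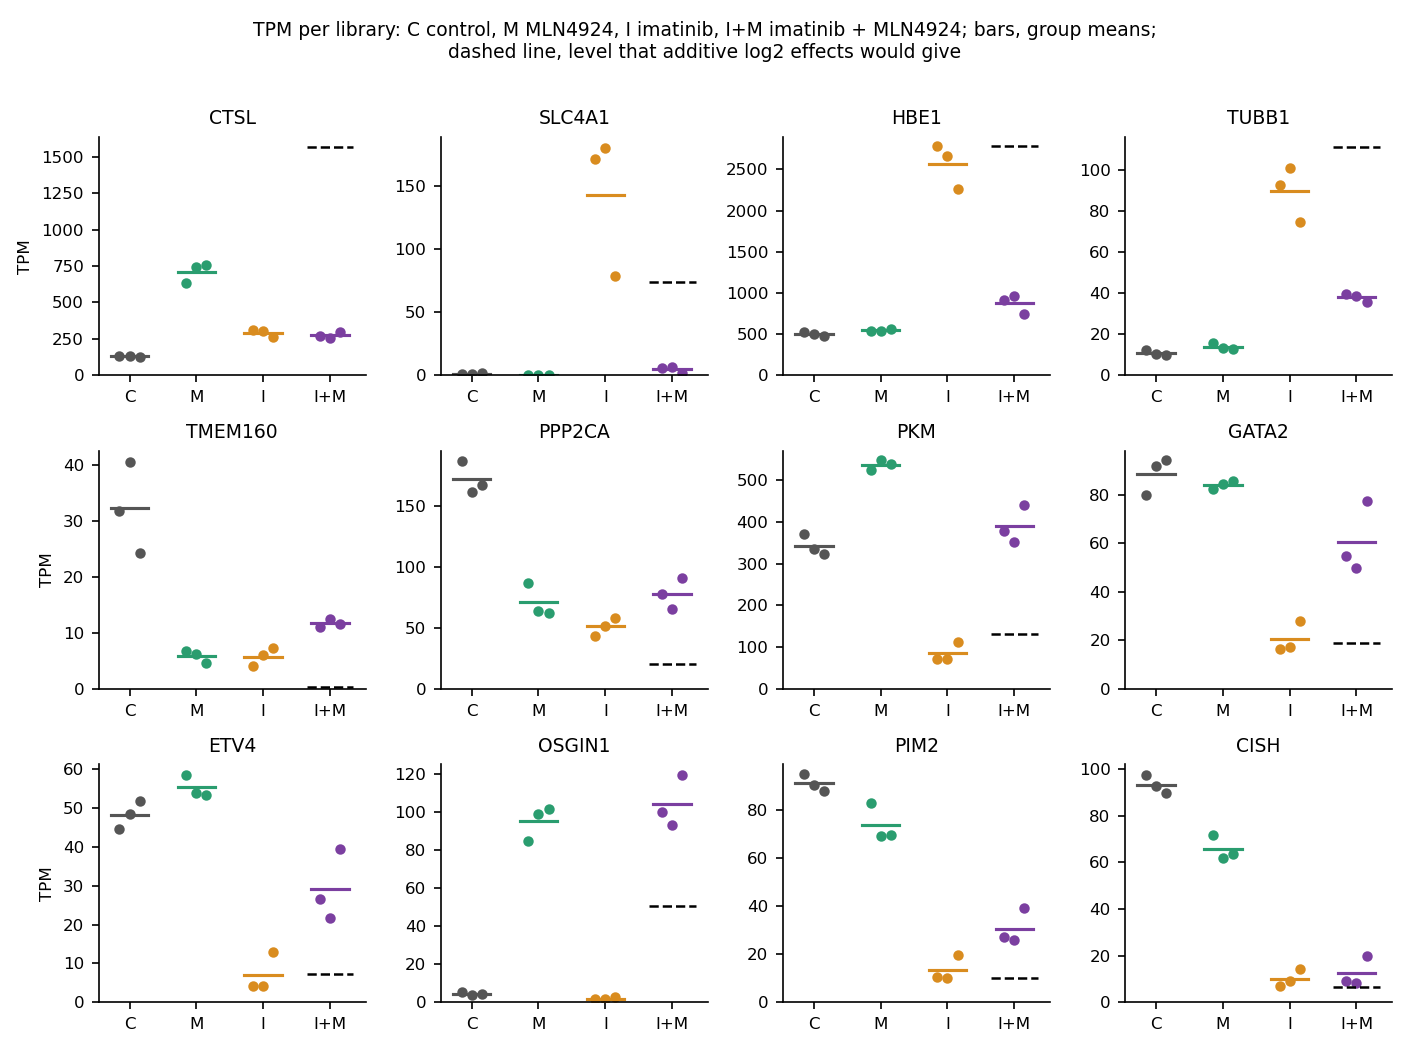
TPM of 12 genes in each library (C control, M MLN4924, I imatinib, I+M both drugs, 3 points per group with a bar at the mean), each panel with its own axis from 0, and a dashed line at the level that additive log2 effects would give. CTSL, SLC4A1, HBE1 and TUBB1 fall short of that line with both drugs, the means of the other genes lie above it, and CISH was not called.

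GP1BB, a subunit of the platelet receptor for von Willebrand factor, was on the same list and positive. GP1BB stood at 131, 147 and 65.7 TPM in control, 19.5, 17.9 and 13.5 TPM with MLN4924, 71.3, 87.3 and 80.0 TPM with imatinib and 44.8, 45 and 49.2 TPM with both drugs. Both groups with MLN4924 lay below both groups without it, the effect of MLN4924 being -2.62 without and -0.76 with imatinib, and the interaction was 1.86 ± 0.34 (SE, adjusted p = 0.00796). Here imatinib was called only in the presence of MLN4924, at 1.41.

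Most genes that each drug lowered alone were called, in the positive direction. Of 390 genes lower with each drug alone, 245 were called and all 245 were positive, which is 62.8%, and of 313 genes higher with each drug alone 133 were called and all were negative, 42.5%. The single effects share the control libraries with each other and with the interaction, so these shares are a description. Of 3536 genes that were lower with imatinib and not called for MLN4924, 1065 were called for the interaction, and of 3402 that were higher, 860. Where the drugs moved a gene in opposite directions, 98 of 358 genes higher with imatinib were called, all negative, and 48 of 334 lower with imatinib, all positive. With MLN4924 only, 26 of 352 lower and 24 of 492 higher genes were called, and with neither drug 41 of 6301. Of these 41, 5 were called in all 12 reduced fits, namely ACSM3, NSMAF, MGST2, CYP4F3 and ZNRF2P2, all positive.

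TMEM160, a mitochondrial membrane protein, had the largest positive value among the named genes (chr19:47045909-47048624). TMEM160 stood at 31.8, 40.5 and 24.3 TPM in control, 6.78, 6.14 and 4.67 TPM with MLN4924, 4.03, 5.96 and 7.27 TPM with imatinib and 11.1, 12.5 and 11.6 TPM with both drugs. It fell with each drug alone and the libraries with both lay between these groups and control without overlap. The interaction was 3.20 ± 0.29 (SE, adjusted p = 0.00116), and additive effects would have left 0.38 TPM. CCDC85B, a small coiled-coil protein, stood at 53.4, 58.1 and 52.9 TPM in control, 13, 11.9 and 12.1 TPM with MLN4924, 8.43, 11.1 and 15 TPM with imatinib and 12.5, 16.9 and 20.6 TPM with both drugs. Its interaction was 2.57 ± 0.27 (SE, adjusted p = 0.00151), although with both drugs it overlapped each drug alone. PPP2CA, the catalytic subunit of protein phosphatase 2A, stood at 187, 161 and 167 TPM in control, 86.8, 63.9 and 61.9 TPM with MLN4924, 43.2, 52 and 58.5 TPM with imatinib and 78, 65.2 and 90.6 TPM with both drugs. Each drug lowered it, and the libraries with both lay above those with imatinib and overlapped those with MLN4924, with an interaction of 1.87 ± 0.22 (SE, adjusted p = 0.00174).

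NDUFAF8, an assembly factor of respiratory complex I, CTXN1, a cortexin, and the open reading frames C4orf48 and C19orf81 were likewise lower with each drug alone and had interactions of 1.87, 1.75, 1.82 and 1.75. The 223 protein-coding genes among the 245 had a median transcript length of 1940 bases and a GC content of 58.9%, against 2111 bases and 58.3% for all 357 protein-coding genes lower with each drug alone and 3223 bases and 48.5% for the 11735 tested. Positive calls as a whole had medians of 2337 bases and 51.3%, and negative ones of 3265 bases and 52.2%. The part of length and GC content in these results was not tested.

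Genes of ribosome biogenesis departed upwards. Of 30 measured genes of ribosome biogenesis 25 were positive and none negative, all 30 values were above 0, and the median was 0.91. In the imatinib libraries the list median, as a log2 difference from the control mean, was -1.68, -1.73 and -1.04, replicate 3 again nearest to control, while with both drugs it was -0.80, -0.78 and -0.45 and with MLN4924 -0.07, -0.15 and -0.17. NCL, nucleolin (chr2:231453531-231483641), stood at 784, 786 and 821 TPM in control, 754, 732 and 702 TPM with MLN4924, 233, 234 and 378 TPM with imatinib and 478, 476 and 596 TPM with both drugs. Its interaction was 1.03 ± 0.22 (SE, adjusted p = 0.0144). NOLC1, which escorts small nucleolar particles, stood at 189, 186 and 198 TPM in control, 177, 168 and 168 TPM with MLN4924, 42.4, 43.7 and 79.6 TPM with imatinib and 108, 111 and 139 TPM with both drugs. With both drugs NOLC1 lay between imatinib and control in every library, with an interaction of 1.31 ± 0.27 (SE, adjusted p = 0.0124). NPM1, nucleophosmin, had 0.56 ± 0.08 (SE, adjusted p = 0.00345) and RRS1, a factor of the large subunit, 1.27 ± 0.25 (SE, adjusted p = 0.00994). RRP9, a U3 particle protein, had the largest value of the list, 1.35 ± 0.38 (SE, adjusted p = 0.034), but was called in 3 of the 12 reduced fits.

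The count of 25 fell to 12 without imatinib replicate 2, to 15 without imatinib replicate 1 or MLN4924 replicate 2, and to 16 without control replicate 2 or MLN4924 replicate 3, and rose to 30 without imatinib replicate 3. It was 24 after rescaling without mitochondrial and the 10 most abundant genes. Without replicate 3 of both imatinib groups it was 30.

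Protein folding chaperones gave 16 positive of 26, none negative and a median of 0.70. HSPB1, a small heat shock protein, stood at 1084, 1078 and 1045 TPM in control, 851, 682 and 624 TPM with MLN4924, 401, 451 and 475 TPM with imatinib and 688, 619.6 and 844 TPM with both drugs. It fell with each drug alone and its interaction was 1.27 ± 0.18 (SE, adjusted p = 0.00299). HSPE1, the mitochondrial co-chaperonin, had 1.27 ± 0.24 (SE, adjusted p = 0.0089), and HSPA8, the constitutive HSP70, 1.14 ± 0.30 (SE, adjusted p = 0.0279). HSPA1A, the inducible HSP70, whose reads may be split with a near-identical copy, had 1.14 ± 0.39 (SE, adjusted p = 0.0659) and was not called. Mitochondrial ribosome and import genes gave 12 positive of 19 with a median of 0.58, among them TOMM40, the channel of the outer membrane, with 1.35 ± 0.27 (SE, adjusted p = 0.0117). Translation factors gave 10 of 18 (median 0.52), splicing 10 of 22 (median 0.42) and the proteasome 9 of 20 (median 0.36), with no negative call in any of these lists.

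EIF5A, the hypusine-bearing elongation factor, had 0.96 ± 0.19 (SE, adjusted p = 0.0104), SRSF3, a splicing activator, 1.02 ± 0.24 (SE, adjusted p = 0.0185), and PSMA6, a subunit of the proteasome core, 0.51 ± 0.10 (SE, adjusted p = 0.0121). Chaperone calls numbered 8 without imatinib replicate 1 or 2, MLN4924 replicate 2 or imatinib + MLN4924 replicate 3, and 10 without control replicate 2. Without any 1 of 9 libraries, namely those of control and MLN4924, imatinib replicates 1 and 2 and imatinib + MLN4924 replicate 3, the calls were 5 to 7 for the mitochondrial list and 5 or 6 for translation factors. Splicing calls numbered 4, 5 and 6 without imatinib replicate 2, imatinib replicate 1 and imatinib + MLN4924 replicate 3, and proteasome calls 5 without imatinib replicate 2. Without imatinib replicate 3 the counts were 24 for chaperones, 18 for the mitochondrial list, 14 for translation factors, 14 for splicing and 19 for the proteasome. The 2 mitochondrial lists went opposite ways, since of 12 measured mitochondrially encoded transcripts 5 were negative and none positive (median -0.27). MT-ND4, a complex I subunit, had -0.38 ± 0.09 (SE, adjusted p = 0.019) and MT-CO1, a subunit of cytochrome oxidase, -0.33 ± 0.09 (SE, adjusted p = 0.0268), and between 0 and 3 calls of this list were left without any 1 of 8 libraries, 0 of them without imatinib replicate 2. Only without control replicate 1 or 3, MLN4924 replicate 3 or imatinib replicate 3 did it keep 4 or more. All mitochondrially encoded RNA together took 12.7 to 13.8% of TPM in control and MLN4924 libraries, 17.4 to 18.2% with imatinib and 14.9 to 15.7% with both.

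Glycolysis and glucose transport gave 12 positive and 2 negative of 20, with a median of 0.48. PKM, pyruvate kinase (chr15:72199029-72231819), stood at 371, 335 and 324 TPM in control, 524, 547 and 539 TPM with MLN4924, 71.6, 72.1 and 113 TPM with imatinib and 379, 352 and 440.9 TPM with both drugs. MLN4924 raised it with or without imatinib, by 2.21 and 0.65, and the interaction was 1.56 ± 0.21 (SE, adjusted p = 0.00263). LDHA, lactate dehydrogenase A, stood at 961, 959 and 909.7 TPM in control, 985, 1054 and 1042 TPM with MLN4924, 201, 215 and 403 TPM with imatinib and 691, 715 and 752 TPM with both drugs. Its interaction was 1.34 ± 0.28 (SE, adjusted p = 0.0122). SLC2A3, the glucose transporter GLUT3, had the largest value, 2.0 ± 0.58 (SE, adjusted p = 0.0393), but was called in 3 of 12 reduced fits, and its imatinib libraries stood at 4.55, 4.05 and 16.1 TPM. SLC2A1, the transporter GLUT1, was negative at -0.97 ± 0.29 (SE, adjusted p = 0.0434), called in 3 of 12, and the second negative gene was PFKP, a phosphofructokinase. GAPDH, often used as a reference gene, had 0.37 ± 0.07 (SE, adjusted p = 0.00945) and was called in all 12. The 12 positive calls fell to 4 without imatinib replicate 2, and to 6 without imatinib replicate 1, and no negative call was left without replicate 2 of control, MLN4924 or imatinib.

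**Figure D4:**
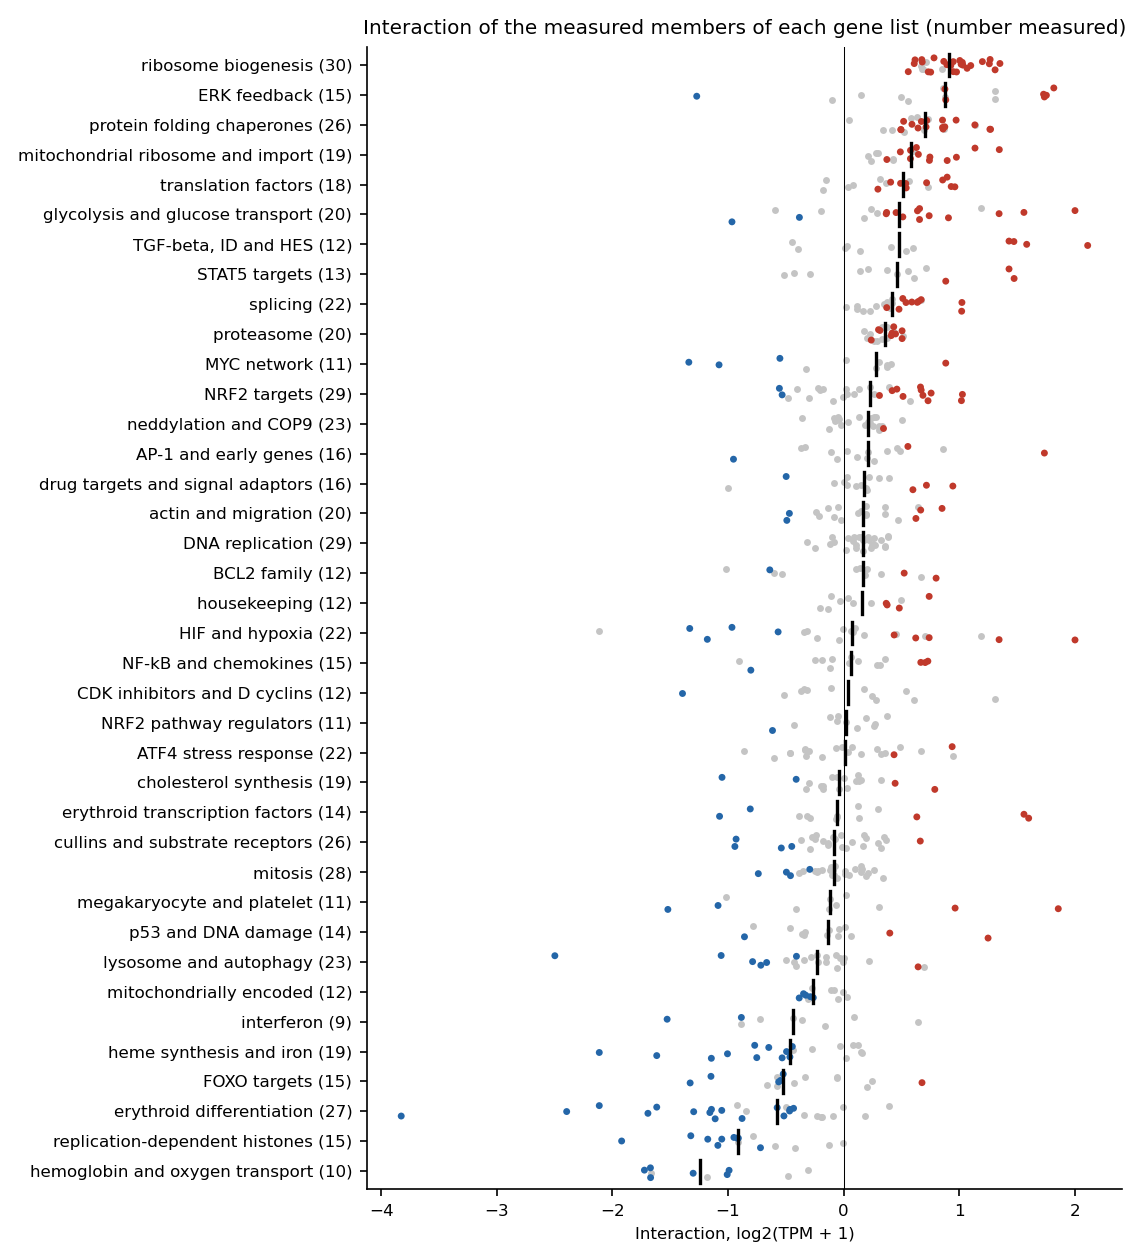
Interaction on log2(TPM + 1) (horizontal axis) of the measured members of each gene list (rows, number measured in brackets), with called positive members in red, called negative ones in blue, others in grey and a black bar at the list median. Ribosome biogenesis is at the top with a median of 0.91 and hemoglobin and oxygen transport at the bottom with -1.24.

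Targets of BCR::ABL1 signalling were read in 2 lists. Of 13 measured STAT5 targets 3 were positive and none negative, and of 15 genes of ERK feedback 6 were positive and 1 negative, with medians of 0.46 and 0.88. Over all genes 9.06% were positive and 7.35% negative. MYC is on both lists. CISH, a STAT5-induced brake on cytokine receptors (chr3:50606489-50611774), stood at 97.5, 92.8 and 89.6 TPM in control, 71.9, 61.8 and 63.5 TPM with MLN4924, 7.19, 8.97 and 14.4 TPM with imatinib and 9.19, 8.20 and 19.8 TPM with both drugs. Both groups with imatinib were far below the others and overlapped each other, and the interaction was 0.71 ± 0.40 (SE, adjusted p = 0.238). SOCS2, another such brake, had 0.46 ± 0.22 (SE, adjusted p = 0.17), with imatinib effects of -2.07 without and -1.60 with MLN4924. BCL2L1, the survival factor BCL-XL, had 0.14 ± 0.27 (SE, adjusted p = 0.754) and CCND2, cyclin D2, 0.61 ± 0.23 (SE, adjusted p = 0.0881). PIM2, a survival kinase, stood at 95.1, 90.5 and 88.2 TPM in control, 82.9, 69.2 and 69.7 TPM with MLN4924, 10.5, 10.2 and 19.6 TPM with imatinib and 27.1, 25.9 and 39.3 TPM with both drugs. Here the libraries with both drugs lay above those with imatinib alone, and the interaction was 1.47 ± 0.30 (SE, adjusted p = 0.0123). The 3 STAT5 calls became 1 without any 1 of 8 libraries (every control and MLN4924 library and imatinib replicates 1 and 2) and 6 without imatinib replicate 3.

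The promoter of CISH is shown because its effect of imatinib was large and not called as non-additive, with STAT sites in capitals.
CISH chr3:50611775-50612024 (reverse strand): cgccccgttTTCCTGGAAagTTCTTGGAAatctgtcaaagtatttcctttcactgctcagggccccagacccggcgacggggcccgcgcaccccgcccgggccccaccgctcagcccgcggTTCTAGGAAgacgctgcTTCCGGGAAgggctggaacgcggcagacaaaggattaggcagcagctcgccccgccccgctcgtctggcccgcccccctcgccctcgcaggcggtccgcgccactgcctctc

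ETV4 and ETV5, ETS factors induced by ERK, were positive. ETV4 stood at 44.6, 48.5 and 51.6 TPM in control, 58.5, 53.8 and 53.2 TPM with MLN4924, 4.28, 4.26 and 12.9 TPM with imatinib and 26.6, 21.6 and 39.4 TPM with both drugs. ETV5 stood at 10.2, 11.9 and 9.98 TPM in control, 11.3, 13.1 and 11.5 TPM with MLN4924, 1.36, 0.68 and 2.52 TPM with imatinib and 6.77, 6.85 and 11 TPM with both drugs. In both genes the libraries with both drugs lay above every imatinib library, and the interactions were 1.82 ± 0.45 (SE, adjusted p = 0.0232) and 1.75 ± 0.34 (SE, adjusted p = 0.00968), the first called in 9 and the second in 12 of the reduced fits. FOSL1, an AP-1 subunit, and EGR1, an early growth response factor, had 1.74 ± 0.43 (SE, adjusted p = 0.0223) and 1.73 ± 0.46 (SE, adjusted p = 0.0285), called in 11 and 6. DUSP5, a nuclear ERK phosphatase, had 0.15 ± 0.28 (SE, adjusted p = 0.756). PHLDA1, the negative member, had -1.27 ± 0.32 (SE, adjusted p = 0.0234). MYC, a driver of growth genes, stood at 292, 302 and 311 TPM in control, 178, 191 and 184 TPM with MLN4924, 82.3, 78.5 and 133 TPM with imatinib and 98.3, 98.7 and 129 TPM with both drugs. It fell with each drug alone, and the interaction was 0.88 ± 0.24 (SE, adjusted p = 0.0309), called in 3 of 12. The ERK list had 1 positive call without imatinib replicate 2, 2 without imatinib replicate 1 or imatinib + MLN4924 replicate 3 and 3 without control replicate 2. It had 4 without control replicate 1 or 3 or any 1 MLN4924 library, and 12 without imatinib replicate 3.

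Among 12 measured genes of TGF-beta, ID and HES 4 were positive and none negative. HES1, a repressor in Notch signalling, stood at 15.8, 19 and 15.7 TPM in control, 13, 11.3 and 12 TPM with MLN4924, 0.75, 1.14 and 2.84 TPM with imatinib and 5.74, 6.31 and 8.39 TPM with both drugs. All libraries with both drugs lay between imatinib and MLN4924, with an interaction of 2.11 ± 0.34 (SE, adjusted p = 0.00502). BAMBI, a decoy receptor of TGF-beta, stood at 9.75, 10.3 and 8.37 TPM in control, 10.1, 7.67 and 8.30 TPM with MLN4924, 2.53, 2.29 and 4.41 TPM with imatinib and 9.99, 8.95 and 11.2 TPM with both drugs. Its libraries with both drugs overlapped control, and the interaction was 1.58 ± 0.25 (SE, adjusted p = 0.00493). ID1 and ID3, inhibitors of basic helix-loop-helix factors, had 1.43 ± 0.42 (SE, adjusted p = 0.0419) and 1.47 ± 0.34 (SE, adjusted p = 0.0187). ID1, which also counts as a STAT5 target, was called in 4 of 12 reduced fits. SNHG15, a small nucleolar RNA host gene, and NEFH, a neurofilament subunit, were also among the leading positive genes, at 1.82 and 1.84.

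**Figure D5:**
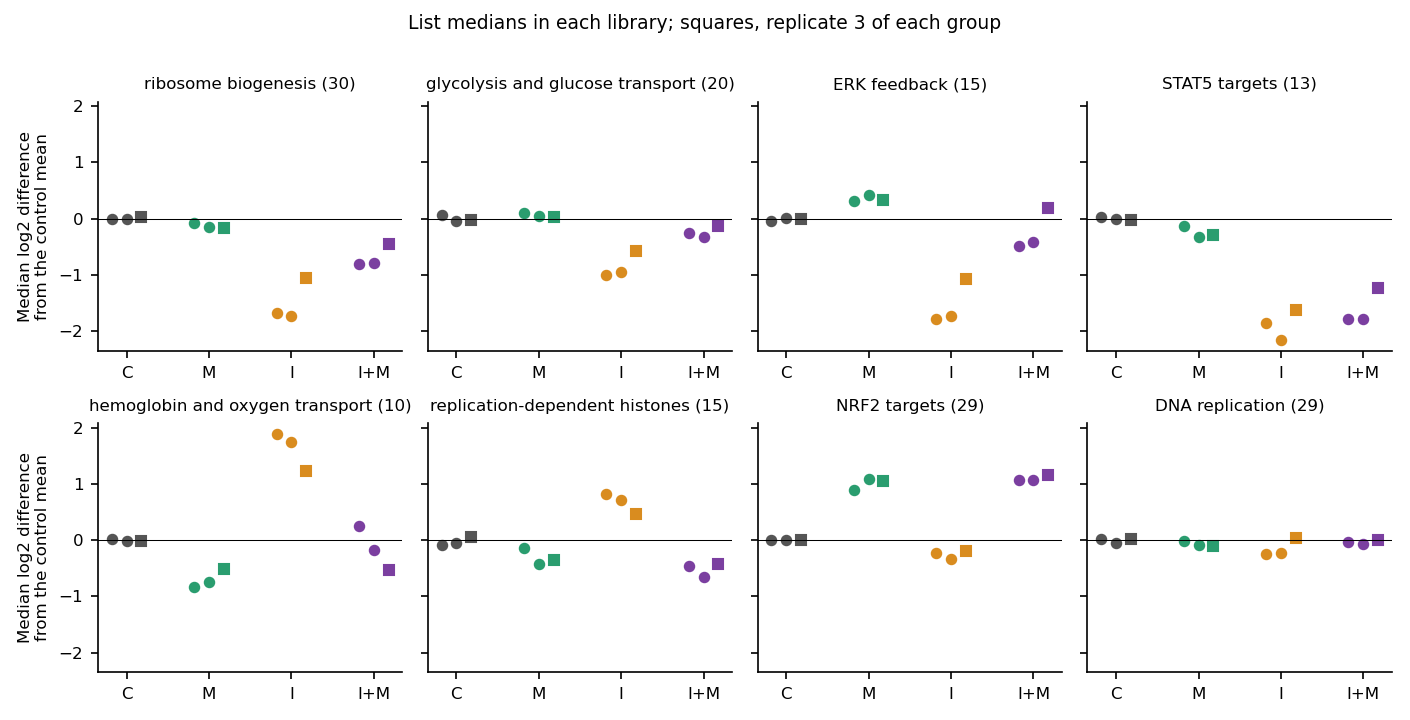
Median over the measured members of 8 gene lists of the log2(TPM + 1) difference from the control mean (vertical axis), 1 point per library, by group (C control, M MLN4924, I imatinib, I+M both drugs), with squares for replicate 3. For ribosome biogenesis, glycolysis and ERK feedback every library with both drugs lies above every imatinib library, for STAT5 targets these groups overlap, and for NRF2 targets both groups with MLN4924 lie together above the rest.

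NRF2 targets moved mainly with MLN4924. Over 29 measured genes the median effect of MLN4924 was 1.0 without and 1.32 with imatinib, and 11 were positive and 2, EPHX1 and FTH1, negative for the interaction, with a median of 0.23. OSGIN1, an oxidative stress growth inhibitor (chr16:83931311-83966332), stood at 5.4, 3.93 and 4.64 TPM in control, 84.8, 99 and 102 TPM with MLN4924, 1.72, 1.67 and 2.78 TPM with imatinib and 100.3, 93.6 and 119.5 TPM with both drugs. MLN4924 raised it in both backgrounds without overlap, by 4.09 and 5.12, while the effect of imatinib was called only in the absence of MLN4924, and the interaction was 1.03 ± 0.21 (SE, adjusted p = 0.0128). NQO1, a quinone reductase, stood at 158, 169.8 and 158 TPM in control, 447, 516 and 534 TPM with MLN4924, 87.2, 81.1 and 98.7 TPM with imatinib and 405, 445 and 475 TPM with both drugs. Its interaction was 0.69 ± 0.13 (SE, adjusted p = 0.00796). CBR1, a carbonyl reductase, and PRDX1, a peroxiredoxin, had 1.02 ± 0.20 (SE, adjusted p = 0.0109) and 0.76 ± 0.12 (SE, adjusted p = 0.00403). GCLM, the modifier subunit of glutamate-cysteine ligase, which starts glutathione synthesis, had 0.42 ± 0.13 (SE, adjusted p = 0.0491) and was called in 1 of 12 reduced fits. NFE2L2, which encodes NRF2, had 0.27 ± 0.15 (SE, adjusted p = 0.244). Of 11 measured regulators of the pathway 1, the repressor BACH1, was called, at -0.62 ± 0.10 (SE, adjusted p = 0.00543). This share was below the 16.4% called over all genes. Without control replicate 1, imatinib replicate 3 or imatinib + MLN4924 replicate 3, 2 regulators were called. The 11 positive calls were 6 without imatinib replicate 2 and 7 without imatinib replicate 1, control replicate 2, MLN4924 replicate 1 or imatinib + MLN4924 replicate 3.

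The promoter of GCLM holds the antioxidant core and a STAT site close to each other and is shown as an example of the list.
GCLM chr1:93909431-93909680 (reverse strand): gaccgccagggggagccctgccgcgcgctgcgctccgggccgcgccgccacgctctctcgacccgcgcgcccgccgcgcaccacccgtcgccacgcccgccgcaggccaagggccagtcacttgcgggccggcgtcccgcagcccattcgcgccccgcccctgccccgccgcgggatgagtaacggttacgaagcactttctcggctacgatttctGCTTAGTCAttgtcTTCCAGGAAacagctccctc

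Histone transcripts departed downwards. Of 15 measured replication-dependent histone genes 9 were negative and none positive, with a median of -0.91, and 8 or 9 were called in each reduced fit. H3C2, a histone H3 gene, stood at 13.3, 10.8 and 16.1 TPM in control, 17.6, 17.2 and 24.4 TPM with MLN4924, 43.9, 38.4 and 28.9 TPM with imatinib and 14.9, 14.4 and 11 TPM with both drugs. The imatinib libraries lay above all others, and the interaction was -1.92 ± 0.27 (SE, adjusted p = 0.00328). H2BC4, a histone H2B gene, stood at 85, 84.6 and 89.2 TPM in control, 89, 80.5 and 82.1 TPM with MLN4924, 168, 161 and 131 TPM with imatinib and 71.9, 60.0 and 63.9 TPM with both drugs. Its libraries with both drugs lay below every other one, so that the imatinib effect was 0.82 without and -0.36 with MLN4924, and the interaction was -1.17 ± 0.13 (SE, adjusted p = 0.00174). Replication-dependent histone messages lack a poly(A) tail in dividing cells, while polyadenylated RNA was sequenced. Of 29 DNA replication genes none was called with limma. At an unadjusted p under 0.05 there were 5 positive and 1 negative, against 5145 of 15478 over all genes in either direction. None of the 29 had an adjusted p under 0.05 in 11 of the 12 reduced fits, and without imatinib replicate 3 11 were positive and 1 negative. Of 28 mitosis genes 4 were negative and none positive. This share was below the 16.4% called over all genes in either direction but above the 7.35% called negative. Only 2 calls were left without control replicate 1 or 2, MLN4924 replicate 2 or 3, imatinib replicate 1 or 2 or imatinib + MLN4924 replicate 3. The negative members included NUSAP1, a spindle protein, with -0.74 ± 0.17 (SE, adjusted p = 0.0167).

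FOXO targets, which growth factor signalling keeps low, gave 5 negative and 1 positive of 15 with a median of -0.52. TXNIP, a thioredoxin inhibitor that limits glucose uptake, stood at 41.2, 40.8 and 45.1 TPM in control, 17.7, 19.9 and 17.8 TPM with MLN4924, 171, 175 and 129.8 TPM with imatinib and 37.2, 33.1 and 24.4 TPM with both drugs. MLN4924 lowered it in both backgrounds, and the interaction was -1.15 ± 0.21 (SE, adjusted p = 0.00754). INSR, the insulin receptor, had -1.33 ± 0.32 (SE, adjusted p = 0.02), at 1.70, 1.90 and 2.82 TPM with imatinib and under 1 TPM in all other libraries. The 5 negative FOXO calls became 2 or 3 without any 1 of 9 libraries, 6 without imatinib replicate 3 and 4 without replicate 1 of MLN4924 or of imatinib + MLN4924.

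CDKN1C, the CDK inhibitor p57, was the only call among 12 measured CDK inhibitors and D cyclins, a share below the 16.4% over all genes. Without imatinib replicate 3, 5 of the 12 (2 positive, 3 negative) were called, and without imatinib + MLN4924 replicate 3, 3, all negative. CDKN1C stood at 15.2, 12.6 and 12.6 TPM in control, 5.22, 6.05 and 5.68 TPM with MLN4924, 89.6, 83 and 48.8 TPM with imatinib and 12.6, 12.8 and 9.81 TPM with both drugs. The imatinib libraries lay above all others, and the interaction was -1.40 ± 0.27 (SE, adjusted p = 0.0101). CDKN1A, the inhibitor p21, had -0.34 ± 0.28 (SE, adjusted p = 0.423). DDIT4, an inhibitor of mTORC1, stood at 44.5, 58.7 and 62.8 TPM in control, 74.3, 84.7 and 84.5 TPM with MLN4924, 72.3, 76 and 70.7 TPM with imatinib and 44.5, 36.4 and 46.6 TPM with both drugs. It rose with each drug alone, but with both it lay below either, with an interaction of -1.33 ± 0.18 (SE, adjusted p = 0.00249).

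Of ABL1, BCR, NAE1, UBA3 and NEDD8, only NEDD8 was called. ABL1 and BCR, the genes joined in the fusion kinase, had 0.00 ± 0.10 (SE, adjusted p = 0.978) and 0.03 ± 0.16 (SE, adjusted p = 0.932). NAE1 and UBA3, the subunits of the NEDD8-activating enzyme, had 0.31 ± 0.12 (SE, adjusted p = 0.106) and -0.12 ± 0.15 (SE, adjusted p = 0.599). NEDD8 stood at 255, 243 and 209 TPM in control, 234, 236 and 241 TPM with MLN4924, 208, 185 and 203 TPM with imatinib and 263, 248 and 248 TPM with both drugs. Its interaction of 0.34 ± 0.10 (SE, adjusted p = 0.0476) was called in 2 of 12 reduced fits. NEDD8 was the only call among 23 measured genes of neddylation and the COP9 signalosome, a share below the 16.4% over all genes. Without imatinib replicate 3, 9 of the 23 were called. Of 26 cullins and substrate receptors 4 were negative and 1 positive, a share close to the 16.4% called over all genes, and without imatinib replicate 3 there were 4 negative and 5 positive. CUL4A, the positive gene, had 0.66 ± 0.10 (SE, adjusted p = 0.00389), while CUL7 and CUL9 had -0.93 ± 0.16 and -0.94 ± 0.20 (SE) and CUL1 0.37 ± 0.13 (SE, adjusted p = 0.0721). STAT5A and STAT5B, adjacent genes for the factor downstream of the kinase, had 0.72 ± 0.13 (SE, adjusted p = 0.00724) and -0.50 ± 0.14 (SE, adjusted p = 0.0318). They are on a list of imatinib targets and signal adaptors, of which 16 were measured. Of these, 3 were positive and 1 negative, against 9.06% and 7.35% over all genes. Without imatinib replicate 3 there were 5 positive and 2 negative. A change in RNA says nothing of the activity of these proteins.

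The remaining lists are read against the background of 16.4%. There were 9 of 22 genes of HIF and hypoxia (5 positive, 4 negative), 4 of 15 of NF-kB and chemokines, 2 of 22 of the ATF4 stress response, 4 of 19 of cholesterol synthesis, 3 of 16 of AP-1 and early genes, 4 of 11 of the MYC network, 3 of 12 of the BCL2 family, 3 of 14 of p53 and DNA damage, 2 of 9 of interferon and 5 of 20 of actin and migration. Of 12 housekeeping genes 4 were positive and none negative. Called in all 12 reduced fits were 2 of HIF and hypoxia, 2 of NF-kB, 2 of cholesterol synthesis, 3 of actin and migration, 1 each of the ATF4, AP-1, MYC and BCL2 lists and 0 of p53 and interferon. NFKBIA, the inhibitor of NF-kB, was positive at 0.71 ± 0.13 (SE, adjusted p = 0.00841) and BIRC2, an inhibitor of apoptosis, negative at -0.80 ± 0.12 (SE, adjusted p = 0.00349). SQLE, squalene epoxidase, was negative at -1.05 ± 0.12 (SE, adjusted p = 0.00174). BCL2, the survival factor, had 0.80 ± 0.24 (SE, adjusted p = 0.0465), called in 2 of 12. MXD4, an antagonist of MYC, had -1.34 ± 0.26 (SE, adjusted p = 0.0103). Markers of other cell types were sparse: 4 of 16 granulocyte and monocyte genes were measured, of which CD33 was positive, 4 of 12 lymphoid and 4 of 11 epithelial and fibroblast genes, of which none was called with limma, while each of the last 2 lists held 1 positive and 1 negative gene at an unadjusted p under 0.05. Over all genes 5145 of 15478 passed that unadjusted threshold. The epithelial and fibroblast list had 1 call without control replicate 1 or imatinib replicate 3.

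Most of these counts changed when single libraries were left out, often whichever of many libraries it was. The 9 calls of HIF and hypoxia became 2 without imatinib replicate 2, 3 without imatinib replicate 1, 4 without replicate 2 of control or MLN4924, and 5 without control replicate 1 or 3 or MLN4924 replicate 1. The 4 housekeeping calls became 1 without control replicate 1, imatinib replicate 1 or 2 or imatinib + MLN4924 replicate 3, 2 without control replicate 2 or 3 or any 1 MLN4924 library, and 2 after rescaling without mitochondrial and the 10 most abundant genes. The 3 of the BCL2 family became 8 without imatinib replicate 3 and 1 without any 1 of 9 libraries, namely all but that one, MLN4924 replicate 1 and imatinib + MLN4924 replicate 2. The 4 of the MYC network became 1 without control replicate 2, MLN4924 replicate 2 or 3 or imatinib replicate 1 or 2, and 2 without control replicate 1 or 3, MLN4924 replicate 1 or imatinib + MLN4924 replicate 3. The AP-1 list had 1 call without imatinib replicate 2 and 6 without imatinib replicate 3. The 4 of NF-kB became 2 without control replicate 2, MLN4924 replicate 1 or 3 or imatinib replicate 1, and the 4 of cholesterol synthesis 2 without control replicate 1 or 2, MLN4924 replicate 2, imatinib replicate 1 or 2 or imatinib + MLN4924 replicate 3. The 2 of the ATF4 list became 4 without control replicate 3 or imatinib replicate 3, and 1 without any other library but MLN4924 replicate 1 and imatinib + MLN4924 replicate 2. The 3 of p53 became 0 without imatinib replicate 1 or 2 and 1 without control replicate 2 or MLN4924 replicate 2 or 3. The 2 of interferon became 1 without control replicate 1 or 3, MLN4924 replicate 1 or 3, imatinib replicate 2 or imatinib + MLN4924 replicate 2 or 3, and the 5 of actin and migration 3 without control replicate 3, any 1 MLN4924 library, imatinib replicate 1 or 2 or imatinib + MLN4924 replicate 1.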

How the data were processed

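Polyadenylated RNA of K562 cells was sequenced in 12 libraries, 3 in each of 4 groups. Reads were trimmed with fastp, aligned to hg38 with HISAT2 and assembled with StringTie, and the authors deposited the transcripts of each gene summed as TPM, whose scaling to the library total keeps no depth. The submitters' processing notes also name featureCounts, but no counts were used here, so a count model was not run. All 12 columns were mapped to samples by name. Names and positions were taken from GENCODE release 44 on GRCh38, which matched 61369 of 61541 Ensembl genes, and 691 assembled loci were kept apart.

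Here log2(TPM + 1) was fitted with limma 3.58.1 (R 4.3.3) with 1 coefficient per group, all 12 libraries and a mean-variance trend, over genes that reached 1 TPM in 3 or more libraries, and p-values were adjusted over the 15478 genes by Benjamini-Hochberg. On simulated data of the interaction over 15478 genes, 8, 26, 45 and 48 of 50 genes changed by 0.5, 1, 2 and 4 log2 units were recovered with 4 false calls. The simulated noise was independent between genes and libraries. False calls from shifts of a whole library were therefore not measured. Jackknife errors leave out 1 library at a time.

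Named were the 12 largest interactions of each sign called in all 12 reduced fits with a group mean of at least 4 TPM, the 3 largest and the first 2 members of each list, the 4 largest of each class of departure, the 6 largest that lose the call without a library, and the drug targets. HBG1, HBG2, TFRC, FTH1, EGR1, PHLDA1, STAT5B, FAM83A, SOX5 and members named beside a list's count were chosen after their values were seen. Some genes that this rule names are not reported here. The members and lists were chosen with earlier results of these data known. Alternatives were other pseudocounts, filters, scalings and weights, a replicate block and leaving out libraries. Promoters are from RefSeq (GRCh38.p14), which held 151 of the 206 named genes. Python 3.11.15 was used for summaries.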

Additional observations from a re-analysis of the deposited data

Results flagged for a closer look

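Beside the Ensembl genes the table holds 691 loci assembled without a reference gene, of which 587 reached 1 TPM in at least 3 libraries. Of these loci 3 were at 0 TPM in all control libraries and at 1 TPM or more in all imatinib + MLN4924 libraries, and they entered none of the comparisons above. They carry no name, and with TPM alone their read support is unknown.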

How the results depend on the processing

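No named gene with a called interaction changed the sign of that value under any alternative run, but the larger side of the calls did turn. For the interaction, the 1402 positive and 1138 negative calls became 1055 and 1407 after rescaling without mitochondrial and the 10 most abundant genes, 668 and 730 without a filter on low values, 1087 and 1093 without a mean-variance trend, 811 and 837 without MLN4924 replicate 3 and 818 and 832 without imatinib + MLN4924 replicate 3. For imatinib + MLN4924 against MLN4924, the 1196 higher and 1312 lower genes became 1386 and 989 after that rescaling, and the larger side also turned without a filter (770 and 745), without the trend (1131 and 1041) and without replicate 1 or 2 of MLN4924 or of imatinib + MLN4924. For imatinib + MLN4924 against imatinib, the 3492 higher and 3166 lower genes became 2922 and 3656 after that rescaling. They became 3044 and 3215 without a filter, and 2695 and 2722 without imatinib + MLN4924 replicate 3. For MLN4924 against control, the 1139 higher and 1100 lower genes became 1169 and 1213 with median-of-ratios scaling. The larger side also turned without MLN4924 replicate 1 (828 and 938), and under some other settings. For the interaction, the 2540 calls became 1398 without a filter on low values (32062 genes tested) and 4608 with array weights, which were lowest for imatinib replicate 3 (0.328) and imatinib + MLN4924 replicate 3 (0.481), and ranged from 1055 to 3979 when 1 library was left out. For imatinib + MLN4924 against MLN4924, the 2508 calls became 1515 without a filter, 4354 with array weights and 3996 without replicate 3 of both imatinib groups, with a range of 1025 to 3259. For MLN4924 against control, the 2239 calls became 3407 with array weights, with a range of 1362 to 2673. The interaction took 10.4% of the sum of squares, 13.3% on the square root of TPM and between 10.2 and 12.0% with 1 library left out. The cause of these shifts was not tested. Of 18 pairs of same-numbered libraries from different groups, 1 had deviations that correlated above 0.1, replicate 3 of imatinib and of imatinib + MLN4924 (r = 0.185), while the others reached at most 0.0635 and the median was 0.0118. The numbers were therefore not taken to pair the samples, and with the replicate number as a block 2553 genes were called, 2279 of them shared. With that block 194 of 206 named genes kept their side of the threshold, 8 passed it and 4 lost it, against 168 kept and 38 lost without imatinib replicate 2. TPM without counts gives no depth, so intervals of single values are not given.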
